A study of Mus musculus with 4 samples.

Results

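A set of 10 genes of antigen presentation on major histocompatibility complex (MHC) class II was followed across the leukocytes of MC38 tumors: H2-Aa, H2-Ab1, H2-Eb1, Cd74, Ciita, H2-DMa, H2-DMb1, H2-DMb2, H2-Oa and H2-Ob. They were chosen by symbol, and all 10 were among the 19059 genes measured. MC38 is a transplanted colon carcinoma line, grown here in C57BL/6 mice that carry human CTLA-4. Live CD45+ cells, taken after a density gradient for lymphocytes, were fixed and profiled by single-cell RNA sequencing with hybridized probes (10x Genomics Flex). Tumors of 11 mice were pooled into 1 library for each of 4 groups, taken on day 8 after 3 treatments that began at about 100 mm3, according to the sample records. Isotype control mice received hIgG1 at 10 mg/kg, and combination mice received ipilimumab, an antibody to human CTLA-4, at 10 mg/kg with the antibody AT130-2 to mouse FcgRII, an inhibitory Fc receptor, as mIgG1-N297A at 20 mg/kg. In each of the other two libraries the title and the treatment field named different antibodies. The library titled for anti-CTLA-4 is called single antibody A here, that titled for anti-FcgRII is single antibody B, and no value of A or B is read as the effect of a named antibody. The article describes the number of tumors, day, tumor size and doses differently from these records. With 1 library per group no test between groups was possible, treatment and library cannot be told apart, and every 95% interval below covers counting error only.

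MHC class II molecules carry peptides from endocytosed proteins to the cell surface, where CD4 T cells read them. H2-Aa and H2-Ab1 encode the alpha and beta chains of I-A, and H2-Eb1 encodes the beta chain of I-E, whose alpha chain gene is defective in C57BL/6 mice. Cd74 encodes the invariant chain, which occupies the groove until the H2-DM dimer (H2-DMa with H2-DMb1 or H2-DMb2) exchanges its remnant for peptide. The H2-O dimer (H2-Oa with H2-Ob) restrains H2-DM, and is best known from B cells, dendritic cells and thymus. Ciita encodes the coactivator of the class II chain genes. It acts through factors bound at shared promoter boxes, constitutively in dendritic and B cells and after interferon gamma in macrophages.

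Letters of the shared boxes are shown as background, and their part in the levels below was not tested. RefSeq promoters of the GRCm38.p6 build matched 7 of the 10 members, H2-Ab1, Ciita and Cd74 being without an entry. Letters of the Y box (TGATTGG, a site of the factor NF-Y) and of the X box core (GCAAC, part of the site of the RFX complex) were searched on both strands of the 250 bases before each start. Capitals mark the matches, and each sequence is 52 bases, 5′ to 3′ on the strand of its gene.
H2-Aa, chr17:34287867-34287918, minus strand: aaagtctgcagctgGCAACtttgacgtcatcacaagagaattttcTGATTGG
H2-Eb1, chr17:34305761-34305812, plus strand: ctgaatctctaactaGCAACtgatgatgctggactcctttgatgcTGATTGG
H2-DMb2, chr17:34145112-34145163, plus strand: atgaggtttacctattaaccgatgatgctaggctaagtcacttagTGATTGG
H2-Oa, chr17:34092289-34092340, plus strand: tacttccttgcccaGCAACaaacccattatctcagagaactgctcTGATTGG
H2-Ob, chr17:34238801-34238852, plus strand: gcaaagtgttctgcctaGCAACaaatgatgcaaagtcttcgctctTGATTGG

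TGATTGG was found in the promoters of H2-Aa, H2-Eb1, H2-DMb1, H2-DMb2, H2-Oa and H2-Ob, and in 7.23% of all 32851 promoters. GCAAC stood upstream of it on the same strand in H2-Aa, H2-Eb1, H2-Oa and H2-Ob, with 28 to 31 bases from the start of one motif to the start of the other. That arrangement, with a spacing of 10 to 45 bases, was held by 55 of the 32851 promoters, 0.167%. H2-DMb1, H2-DMb2 and both starts listed for H2-DMa lacked it in the bases searched. For H2-DMb1 the 52 bases ending at TGATTGG, 34153083 to 34153134, lie wholly in annotated untranslated sequence and are not shown. That gene is annotated from 34153072, so part of the bases searched for it may be transcribed. The bases searched for H2-DMb2 and H2-DMa lie inside the annotated genes, which begin at 34143307 and 34119541, and may be transcribed too. A match describes these letters in this window and is not evidence of binding. H2-DMb1 and H2-DMb2 lie side by side on chromosome 17 and share 95.9% of the 786 aligned bases of their longest reading frames, so their counts may be split wrongly by the probes. Of the members 8 lie on chromosome 17 between 34092340 and 34316674, Ciita on chromosome 16 from 10480059 to 10528418 and Cd74 on chromosome 18 from 60803848 to 60812652.

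Levels are UMIs of a gene summed over the cells of a class in a library, per 1000000 UMIs of that class (CPM). They are not compared between genes, since probe numbers per gene were not known. The 28290 cells deposited held 129151823 to 196362818 UMIs per library, and 26778 cells were kept and clustered without any class II gene. No cell barcode was shared between libraries, whereas 11.7% to 15.05% of the droplet barcodes of the smaller library of a pair recurred in the other. Of the 26 clusters, 11 were macrophages (3303 to 4109 cells per library), 1 was monocytes (179 to 563) and 2 held dendritic cells (75 to 194 after subclusters were named). Macrophage markers were present throughout: 11 to 13 of the 13 listed reached 50 CPM in each of the 11 macrophage clusters, but 4 to 13 did so in the remaining clusters too. The cluster led by Ly6i and Nos2 (500 to 873 cells) had 1 macrophage and 1 monocyte marker among its 10 leading genes and was left unnamed. It too had 12 of the 13 macrophage markers at 50 CPM. Of the clusters called macrophages, only those led by Arg1 and Fn1 (2) and by Gpnmb and Igf1 (1) had macrophage markers among their leading genes. The others, such as that led by Cbr2 and Stab1, had 0. These counts alone therefore did not set the names. A pair of clusters with both T cell and macrophage genes was set apart. C1q RNA of macrophages was high in some cells of every lymphoid class, so these classes are given for cells with under 0.1% of UMIs on C1qa, C1qb and C1qc, a limit set after the data were seen.

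In macrophages the class II chains, H2-Aa, H2-Ab1 and H2-Eb1 summed, stood at 11264 CPM in isotype control, 13591 CPM with A, 5751 CPM with B and 13940 CPM in the combination. The single antibody B library was thus the low one, at 0.511 times isotype control (0.509 to 0.512), and the other libraries lay within 1.24-fold of each other. The combination stood at 1.24 times isotype control (1.23 to 1.24), 1.03 times A (1.02 to 1.03) and 2.42 times B (2.42 to 2.43).

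The 3 chain genes moved alike. H2-Aa was at 3907, 4594, 2028 and 4714 CPM in isotype control, A, B and the combination. H2-Ab1 was at 3393, 4121, 1753 and 4467 CPM, and H2-Eb1 at 3964, 4876, 1971 and 4759 CPM, in the same order. For each of them the combination was within 1.08-fold of A. Cd74, the invariant chain, followed with 10112, 12378, 5458 and 13572 CPM.

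Ciita, the coactivator, stood at 140.0, 155, 66.8 and 148 CPM in macrophages. With B it was 0.477 times isotype control (0.462 to 0.492), close to the ratio of the chains. In the combination it was 1.06 times isotype control (1.03 to 1.08), below the 1.24 of the chains, and 0.954 times A (0.931 to 0.978). There were 80.5 chain UMIs per Ciita UMI in isotype control and 94.3 in the combination, with 87.7 for A and 86.1 for B.

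Among the peptide editors H2-DMa and H2-DMb1 moved less with B than the chains did, and H2-DMb2 was at 0.527 times isotype control (0.470 to 0.590), an interval that includes the ratio of the chains. H2-DMa was at 375, 416, 274 and 360.4 CPM, so that B was 0.733 times isotype control and the combination 0.962 times. H2-DMb1 was at 133, 138, 86.0 and 130.2 CPM. Its near copy H2-DMb2 was at 10.2, 7.63, 5.39 and 5.70 CPM, lower than isotype control in all 3 treated libraries, and at 0.557 times isotype control in the combination (0.500 to 0.621).

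Neither H2-O gene followed the chains throughout in macrophages. H2-Oa was at 5.51, 3.02, 1.52 and 4.21 CPM. It was lowest with B, like the chains, but was below isotype control also with A and in the combination. H2-Ob was at 15.6, 12.6, 10.8 and 9.02 CPM, with its lowest level in the combination, 0.578 times isotype control (0.530 to 0.630), whereas the chains were highest there.

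Counted at 1.5-fold among genes with at least 5 CPM in one of both libraries, 8 of 10 members were lower with single antibody B than in isotype control, against 2.08% of the 9539 genes. The exceptions were H2-DMa and H2-Ob. No member was higher, where 0.723% of genes were. In the combination against isotype control 2 of 10 members were lower, H2-DMb2 and H2-Ob, against 3.03% of 9608 genes, and 0 were higher, against 4.16%. Against B, 6 of the 9 members at the minimum were higher in the combination, where 6.05% of 9583 genes were, and 0 were lower, where 3.50% were. H2-DMa, H2-DMb2 and H2-Ob were within 1.5-fold. Between the combination and A no member passed 1.5-fold in either direction, with 9 at the minimum, where 3.85% of 9578 genes were higher and 2.13% lower. With A against isotype control 1 of 10 was lower, H2-Oa, against 1.06% of 9544 genes, and 0 were higher, against 0.660%. The median log2 ratio of the members was -0.94 for B to isotype control and 0.03 for the combination to isotype control, beside -0.02 and -0.10 over all genes.

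**Figure D1:**
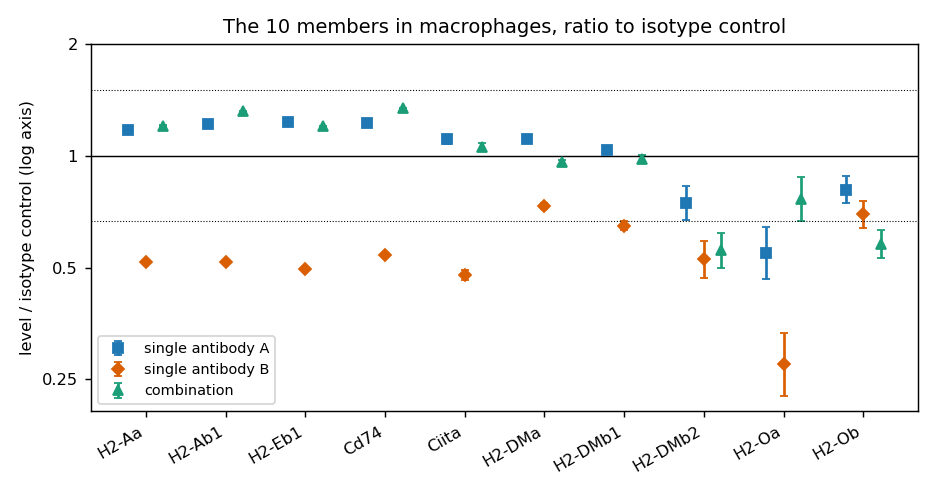
Level of each member in macrophages divided by its level in isotype control, on a log axis, for single antibody A (squares), single antibody B (diamonds) and the combination (triangles), 1 library each. Bars are 95% counting intervals and dotted lines mark 1.5-fold either way. The chains, Cd74 and Ciita lie near 0.5 for B and at or above 1 for A and the combination, whereas H2-DMb2, H2-Oa and H2-Ob lie below 1 in all 3.

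Single macrophages showed where in the distribution the libraries parted. Cells, whose median depths were 16920 to 22942 UMIs, were thinned to 7735 UMIs each, and 308 to 555 shallower cells per library were left out. The median macrophage then had 61.4 chain UMIs per 10000 in isotype control, 85.3 with A, 6.46 with B and 106 in the combination. At full depth the medians were 57.6, 80.5, 6.02 and 102. Cells at the 90th percentile had 344, 371, 220 and 346 per 10000, so the libraries were nearer at the top of the distribution than at its middle. At the 25th percentile the values were 5.17, 9.05, 1.29 and 20.7, the combination being highest. Macrophages with no chain UMI at this depth made up 8.69% (7.79% to 9.67%), 6.46% (5.60% to 7.40%), 22.5% (21.1% to 23.9%) and 3.75% (3.13% to 4.45%).

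**Figure D2:**
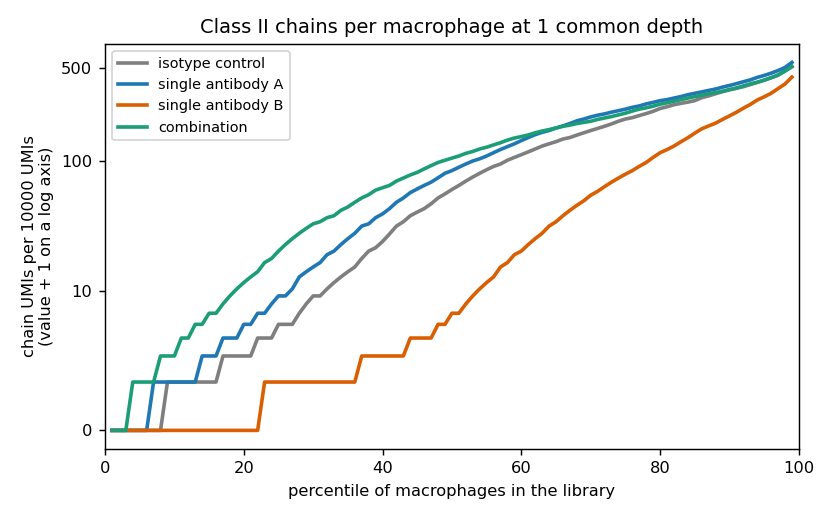
Class II chain UMIs per 10000 UMIs (value + 1 on a log axis) against the percentile of macrophages within a library, all cells drawn down to 7735 UMIs. The line of single antibody B runs below the others, with a median of 6.46 against 61.4 to 106, and the combination runs highest up to the median.

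The low level with B was seen in each of the 11 macrophage clusters. In all of them B was the lowest of the 4 libraries for H2-Aa, H2-Ab1, H2-Eb1, Cd74, Ciita and H2-Oa, as it was for the summed chains. H2-Oa reached 0 CPM even among macrophage groups with at least 50 cells, so its order in single clusters rests on few UMIs. Across the clusters the median ratio of B to isotype control was 0.542 for the chains. At the cluster mix of isotype control it was 0.523, close to the 0.511 without that weighting. Macrophages made up 67.4% of the cells of B and 50.4% to 54.7% of the other libraries, shares that the gradient and the sort can set.

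The combination had no such uniform place. It was above isotype control in 7 of the 11 clusters for the chains and above A in 3, with a median ratio to isotype control of 1.01, and at the cluster mix of isotype control the ratio was 1.13 (1.13 to 1.14). The largest excess was in macrophages led by Ctsk and Hspa1a, where the chains stood at 5585, 6406, 2038 and 13101 CPM in isotype control, A, B and the combination. Macrophages led by Gpnmb and Igf1 held chains at 8857, 13512, 4212 and 17650 CPM. Macrophages led by Cxcl9, an interferon gamma induced chemokine, had the highest chain level in isotype control, 25861 CPM, with 27922, 16178 and 23682 CPM in A, B and the combination. Those led by Arg1 and Fn1 had 17003, 17116, 10566 and 14009 CPM of the chains. In both of these the combination lay below isotype control. Cells of a cluster also differed between libraries in other genes. In the Ctsk cluster Nos2 was at 292, 500, 189 and 2058 CPM, and C1q RNA at 12638, 13430, 12911 and 8849 CPM. Nos2 was at 103, 226, 53.4 and 1300 CPM in the Gpnmb cluster and at 75.9, 160, 36.5 and 1011 CPM in the Arg1 cluster. The part of such differences in the chain levels was not tested.

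Ciita in these clusters ran with the chains only in part. In macrophages led by Ctsk and Hspa1a Ciita was at 45.6, 46.6, 16.5 and 74.9 CPM. The combination thus held 175 chain UMIs per Ciita UMI there, the highest ratio of any macrophage cluster and library with at least 50 cells. A nearly equal ratio, 173, was held by single antibody A in dividing macrophages led by Adm and Hspa1a (69 cells). The lowest, 67.9, was in the Cxcl9 cluster of isotype control, where Ciita was at 381 CPM. H2-DMb2 was below isotype control in the combination in all 11 clusters, with a median ratio of 0.551, and H2-Ob in 9 of the 11. H2-DMb2 was as low as 2.33 CPM even in macrophage groups with at least 50 cells. The combination had only 24 cells in the Adm and Hspa1a cluster and 31 in that led by Lyve1 and Retnla. Values of single small clusters thus rest on few UMIs.

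**Figure D3:**
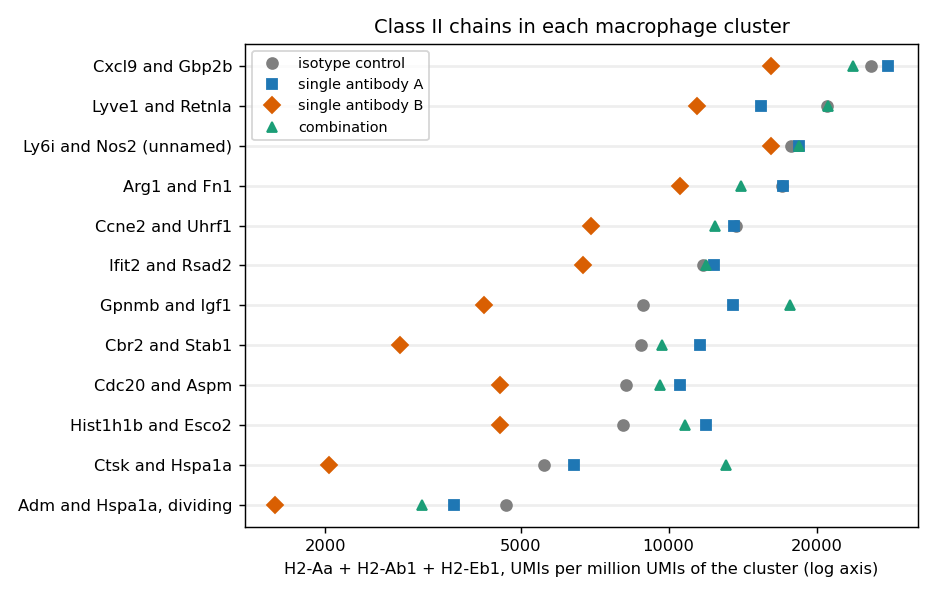
Class II chain level in the 11 macrophage clusters and the unnamed Ly6i and Nos2 cluster, named by leading genes and ordered by isotype control, in CPM on a log axis, 1 point for each library. Single antibody B is lowest in every row, by little in the unnamed cluster, and the combination is farthest to the right in the Ctsk and Gpnmb clusters.

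The unnamed Ly6i and Nos2 cluster was nearly level. Its chains stood at 17763, 18396, 16157 and 18413 CPM, with B at 0.910 times isotype control. Ciita was at 353, 293, 273 and 263 CPM there, and H2-DMb2 at 18.2, 14.5, 11.5 and 9.26 CPM, both lowest in the combination. This cluster held 9.63%, 10.4%, 8.65% and 12.1% of the cells.

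Monocytes, the cluster led by Ace and Adgre4, had chains at 3801, 4083, 2991 and 5480 CPM. Ccr2, also a listed monocyte marker, was among the leading genes of the Arg1 and Fn1 macrophages. The monocyte values are thus those of the Ace and Adgre4 cluster and may not hold for all tumor monocytes. The combination was 1.44 times isotype control (1.41 to 1.47) and B was 0.787 times (0.764 to 0.811). C1q RNA was also highest in the combination, at 1859, 426, 1234 and 2521 CPM in the same libraries. Its lowest level was with A, where the chains were above isotype control. In the 164 to 503 monocytes per library with little C1q the chains were at 2626, 3109, 1926 and 2799 CPM, the combination at 1.07 times isotype control (1.03 to 1.10) and B at 0.733 times (0.704 to 0.764). Without integration of the libraries, the monocyte cluster gave a ratio of 2.19 for the combination. The part of C1q RNA in these ratios was not tested, and the C1q limit was set after the data were seen. Ciita was at 92.2, 111, 86.2 and 107 CPM over all monocytes, and 3 of 8 members at the minimum (H2-Ab1, H2-Eb1 and H2-Ob) exceeded isotype control by at least 1.5-fold in the combination, where 7.98% of 9227 genes did, and 0 were lower, where 3.35% of genes were. H2-DMb2 and H2-Oa had 2 to 20 UMIs per library, too few to compare.

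Dendritic cells, professional antigen presenters, did not show the pattern of the macrophages. Over conventional type 1 (cDC1), type 2 (cDC2) and migratory cells the chains stood at 32300, 31746, 32971 and 28878 CPM. B was at 1.02 times isotype control (1.01 to 1.04), and the combination, the lowest, at 0.894 times (0.881 to 0.907), which became 1.00 when no likely doublets were left out. Ciita was at 785, 927, 836 and 844 CPM, the combination at 1.08 times isotype control (0.984 to 1.17), an interval that includes 1. The only member at least 1.5-fold lower in the combination was H2-Ob, at 174, 159, 165 and 114 CPM, 1 of 10 where 18.2% of 9639 genes were, and H2-DMb2 followed at 109, 124, 134 and 76.8 CPM.

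The kinds of dendritic cell had different mixes of members. The cDC2 were the kind with at least 20 cells in each library (53 to 137), and held chains at 38155, 34507, 34846 and 31428 CPM, with the combination at 0.824 times isotype control (0.809 to 0.838) and B at 0.913 times (0.899 to 0.928). Their Ciita was at 938, 1077, 916 and 1153 CPM, highest where the chains were lowest, and 1.23 times isotype control in the combination (1.11 to 1.36). In cDC1, with 5 to 22 cells, the chains ranged from 24867 to 37507 CPM. Migratory dendritic cells, marked by Ccr7 and Fscn1, numbered 35, 18, 11 and 36 cells and had chains at 11156, 19956, 20794 and 23265 CPM. Their H2-DMa was at 109 to 269 CPM, where cDC2 had 871 to 945, and their Ciita at 144 to 365 CPM, where cDC2 had 916 to 1153, so in each library these were lower than in cDC2. Plasmacytoid dendritic cells, marked by Siglech and Ccr9, had 4 to 21 cells and were left out of the class. Among 28 other genes of the class II pathway, 10 lay at least 1.5-fold above isotype control in the dendritic cells of the combination and 4 below, as did 9.42% and 18.2% of all genes. The mix of kinds differed, with migratory cells 35 of 194 dendritic cells in isotype control and 36 of 94 in the combination. Its part in these counts and in the pooled levels was not tested.

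**Figure D4:**
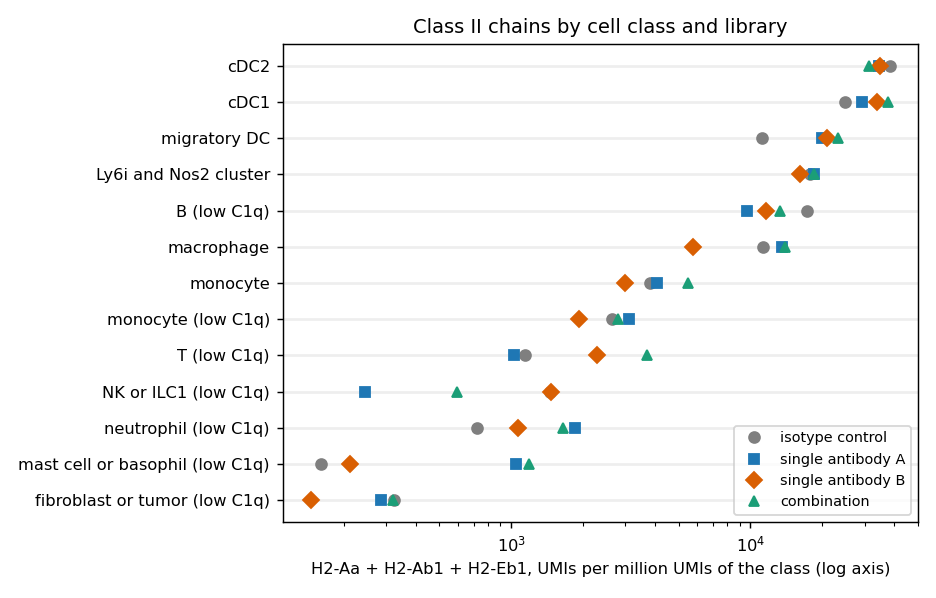
Summed level of the 3 class II chains in each cell class, in CPM of the class on a log axis, 1 point for each library. Low C1q marks classes limited to cells with under 0.1% of UMIs on C1q genes. The libraries lie together in cDC2, and single antibody B lies apart on the low side in macrophages.

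B cells were few, 7 to 19 per library with little C1q, and held chains at 9623 to 17156 CPM and Ciita at 365 to 693 CPM, with C1q RNA at 94.3 to 402 CPM. Their H2-Ob was at 901, 625, 519 and 1252 CPM, above every other class in each library, and their H2-Oa at 346, 259, 231 and 368 CPM stood beside 285, 251, 228 and 222 CPM in cDC2, from 10 to 25 UMIs in B cells. The share between the near copies differed by class. H2-DMb1 had 12.97 to 22.8 UMIs for each H2-DMb2 UMI in macrophages, 1.99 to 3.39 in cDC2 and 0.500 to 0.875 in B cells, the last from only 6 to 24 H2-DMb2 UMIs per library. Migratory dendritic cells lay in the range of the B cells, at 0.571 to 0.850, from 10 to 20 H2-DMb2 UMIs.

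Lymphocytes that present little antigen on class II held more H2-Oa than macrophages did. In NK cells and type 1 innate lymphoid cells with little C1q, H2-Oa was at 22.3, 25.4, 30.6 and 25.4 CPM, where macrophages had 1.52 to 5.51 CPM. The chains in these cells were at 1448, 243, 1462 and 591 CPM, beside C1q RNA at 156, 90.7, 89.7 and 131 CPM, whose part in the chain level was not tested. T cells with little C1q had H2-Oa at 24.7, 26.8, 21.4 and 19.04 CPM. Drawn to 2000 UMIs, from medians of 4196 to 5998, 3.68%, 3.87%, 4.75% and 4.06% of NK cells and type 1 innate lymphoid cells had an H2-Oa UMI, against 0.279% to 0.834% of macrophages and 0.0794% to 0.149% of the 69 to 93 fibroblast or tumor cells, whose upper limits reached 3.89% to 5.21%. The lower limits in NK cells and type 1 innate lymphoid cells were 1.84% to 2.26%, and the upper limits in macrophages 0.507% to 1.19%. These shares are the mean expected over draws. Their intervals take the rounded expected number as a count and treat cells of 1 pool as independent. They are therefore approximate and no test between classes. Without drawing down the shares were 8.91% to 16.7% in the first and 2.59% to 7.83% in macrophages, whose medians were deeper. Their cluster led by Gzmc and Gzmd had H2-Oa at 29.6, 36.3, 41.1 and 30.1 CPM. H2-Ob did not go along, at 2.54 to 10.9 CPM in the NK cells and type 1 innate lymphoid cells.

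The remaining classes also held some chain RNA. In the fibroblast or tumor cluster, whose Ptprc (the gene of CD45) was at 8.78 to 15.5 CPM in its low C1q cells against 1453 to 2024 CPM in the NK cells and type 1 innate lymphoid cells, the chains were at 146 to 324 CPM and Ciita at 2.70 to 3.69 CPM. Mast cells and basophils had chains at 161, 1041, 210.4 and 1187 CPM, in 27 to 77 cells with little C1q. Neutrophils with little C1q had 717, 1851, 1061 and 1641 CPM of the chains. C1q RNA in these cells was at 55.2 to 129 CPM in mast cells and basophils and at 145 to 219 CPM in neutrophils, and its part in the chain levels was not tested.

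**Figure D5:**
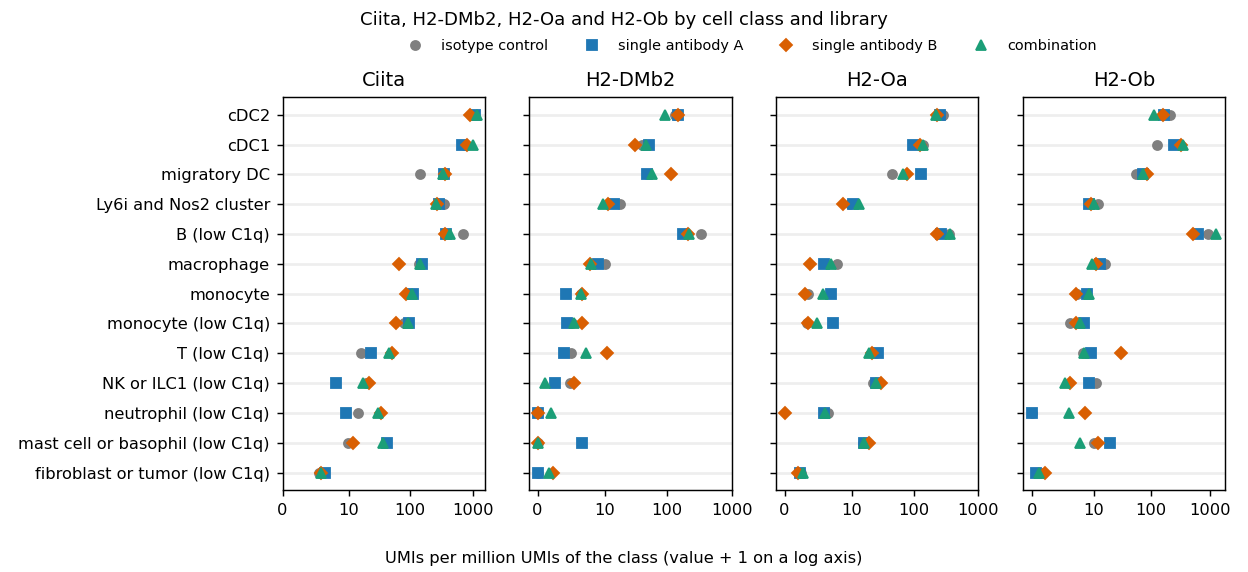
Levels of Ciita, H2-DMb2, H2-Oa and H2-Ob by cell class, in CPM of the class (value + 1 on a log axis), 1 point for each library. Ciita, H2-DMb2, H2-Oa and H2-Ob are high in cDC2 and B cells, and H2-Oa lies between 19.04 and 30.6 in T cells and in NK cells with type 1 innate lymphoid cells, to the right of macrophages.

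In macrophages no other gene of the class II pathway that reached 5 CPM fell as far with B as the chains did. Of 30 genes listed 29 were measured and 28 reached 5 CPM. With single antibody B 1 of 28 was at least 1.5-fold lower than in isotype control and 0 were higher, beside 2.08% and 0.723% of all genes. That gene was Socs1, an inhibitor of interferon signalling, at 77.03, 103, 50.6 and 276 CPM. Subunits of the RFX complex and of NF-Y stayed within 1.5-fold of isotype control. Rfx5 was at 19.01, 20.6, 17.9 and 21.8 CPM, and Rfxap at 51.3, 50.4, 52.3 and 49.8 CPM. Rfxank was at 21.7, 20.99, 19.8 and 21.1 CPM, and Nfya at 131, 128, 133 and 116 CPM. In the combination Rfx5 was at 1.15 and Nfya at 0.889 times isotype control. Nfyb and Nfyc, and the listed transcription factors Creb1 and Spi1, lay between 0.823 and 1.02 times isotype control.

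Several genes induced by interferons were highest in the combination. Irf1, an interferon-induced transcription factor that acts on Ciita, was at 311, 382, 235 and 625 CPM in macrophages, 2.01 times isotype control in the combination and 0.754 times with B. Nlrc5, the coactivator of class I genes, was at 143, 157, 100.1 and 218 CPM. In all, 6 of 28 genes were at least 1.5-fold higher in the combination, among them Nlrc5, Irf1, Socs1, Ctsl and Cd40, where 4.16% of genes were, and 0 were lower. Nlrc5, Irf1, Socs1 and Cd40 had the order of the chains across the libraries, lowest with B and highest in the combination. Beside these, Ciita stood at 1.06 times and the chains at 1.24 times isotype control. Ifngr1, a receptor chain of interferon gamma, was at 379, 305, 311 and 255 CPM, lowest in the combination, and Irf8 at 326, 365, 317 and 447 CPM.

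Over 80 groups of cells of 1 cluster and 1 library with at least 50 cells each, the log2 levels of Cd74 (Pearson's r = 0.99), H2-DMb1 (0.96), Ciita (0.96), H2-DMa (0.94), H2-DMb2 (0.81) and H2-Ob (0.64) were correlated with the mean of the chains in decreasing degree, and H2-Oa least (0.25). These groups share libraries and cell types, so the values describe the pattern and carry no p-value. They were whole clusters, without the C1q limit and with the mixed T cell and macrophage clusters. The part of macrophage RNA in these values and in the list below was not tested. The genes outside the set with the most similar pattern were Shtn1 (0.90), Plbd1 (0.87), Slc29a3 (0.87), Tlr9 (0.87), Ifi30 (0.87), Adap2 (0.86), Pkib (0.86) and Fgd2 (0.86). Ifi30 encodes the thiol reductase that prepares proteins for class II loading. Over the 40 groups that were macrophages, r was 0.96 for Ciita, 0.62 for H2-DMb2, 0.64 for H2-Oa and 0.36 for H2-Ob.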

How the data were processed

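The authors deposited raw UMI counts per gene and cell, which Cell Ranger made from barcodes called as cells. The submitters' processing notes name Cell Ranger 7.0.0 and mm10, and the matrix headers name 7.2.0. Samples were grouped by title. Members and gene lists were chosen with earlier results of these data known.

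Cells with at least 500 genes and at most 10% mitochondrial UMIs were kept. Scrublet's automatic calls found 2 doublets in all, and the top 5% of each library by score was therefore excluded. Clusters followed the study's steps in Seurat 5.3.0 (SCTransform per library, 3000 integration features, 30 principal components, resolution 0.8), without the 10 members and H2-Eb2 among the features. Marker lists guided the names of clusters, but marker counts alone did not set them. Dendritic clusters were split in scanpy 1.11.5 (15 components, resolution 0.3). Summed counts gave CPM with exact Poisson intervals and ratios with exact conditional intervals at 95%. Shares of cells have exact binomial intervals. PCR and cells of 1 pool are not independent, so intervals cover counting error only. The weighting by cluster mix used the UMIs of each cluster in isotype control.

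Named genes were the members, 30 pathway genes by counts with the factors and those past 1.5-fold, and 8 genes most like the chains. Of these, 1 gene of the pathway list is counted but not reported here. Ifngr1 and the observations on migratory cells and basophils were singled out after their values were seen. The 1.5-fold rule was tested on simulated counts of the macrophage comparison of combination to isotype control: 200 of 200 genes changed 2-fold were recovered among 9516 genes. The changed genes were drawn from above the 5 CPM minimum and changed by more than the cut-off, so their recovery was nearly certain. It does not bear on members near the minimum, such as H2-Oa. That simulation held counting error only, so it says nothing of variation between libraries or mice. Alternatives covered clustering features, integration, resolution, doublets, filters, scaling, averaging, depth and the class limits. Depth left H2-Oa and H2-DMb2 with 2 to 20 UMIs per library in monocytes.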

Additional observations from a re-analysis of the deposited data

Results flagged for a closer look

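Relative to isotype control, the class II chains lay on opposite sides of 1 in macrophages and in dendritic cells in all 3 treated libraries. The ratios were 1.21 and 0.983 with single antibody A, 0.511 and 1.02 with single antibody B, and 1.24 and 0.894 in the combination, for macrophages and dendritic cells. With A the dendritic ratio was close to 1, beside a median log2 ratio of -0.042 over all genes in these cells. Its side can therefore depend on the scaling, which was not tested for it. The sides are those of dendritic cells pooled over their kinds. In cDC2 alone the chains with B were at 0.913 times isotype control, on the same side as in macrophages, and in migratory dendritic cells all 3 treated libraries, at 19956, 20794 and 23265 CPM, were above the 11156 CPM of isotype control. Migratory cells were 35 of 194 dendritic cells in isotype control and 36 of 94 in the combination. With 1 library in each group the difference was not tested, and the dendritic ratio of the combination was 1.00 when no likely doublets were left out. These comparisons share the isotype control library. C1q RNA in the dendritic cells was at 432, 171, 736 and 480 CPM in isotype control, A, B and the combination. In dendritic cells with low C1q the ratio of the combination was 0.901, and the part of C1q RNA in the ratios of A and B was not tested.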

How the results depend on the processing

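Ratios are given in 1 order: the class II chains in macrophages for the combination to isotype control, to A and to B, for the first of these at the cluster mix of isotype control, for B to isotype control and the same at that mix, then Ciita in macrophages, the chains in monocytes and the chains in dendritic cells, the last 3 for the combination to isotype control. As reported they were 1.24, 1.03, 2.42, 1.13, 0.511, 0.523, 1.06, 1.44 and 0.894. With class II genes kept among the clustering features they were 1.21, 1.03, 2.21, 1.19, 0.549, 0.604, 1.01, 1.56 and 0.875. Without integration they were 1.24, 1.03, 2.21, 1.12, 0.562, 0.565, 1.05, 2.19 and 0.869. At resolution 0.4 they were 1.34, 1.07, 2.71, 1.31, 0.497, 0.480, 1.14, 1.54 and 0.897. At resolution 1.2 they were 1.253, 1.03, 2.46, 1.18, 0.509, 0.509, 1.07, 1.499 and 0.882. With no doublets left out they were 1.24, 1.04, 2.42, 1.14, 0.513, 0.505, 1.04, 1.53 and 1.00. With at least 1000 genes and at most 5% mitochondrial UMIs they were 1.24, 1.03, 2.41, 1.14, 0.514, 0.529, 1.05, 1.65 and 0.869. Scaled by the median of ratios they were 1.33, 1.06, 2.53, 1.22, 0.526, 0.538, 1.14, 1.47 and 0.971. As means over cells they were 1.18, 1.01, 2.25, 1.10, 0.523, 0.526, 1.03, 1.22 and 0.834. Drawn down to 1 depth they were 1.18, 1.01, 2.30, 1.10, 0.512, 0.523, 1.04, 1.17 and 0.859. With the members left out of the totals they were 1.245, 1.03, 2.47, 1.14, 0.505, 0.518, 1.06, 1.45 and 0.889. In macrophages, scaling by the median of ratios shifted all genes by 0.11 (log2) upward in the combination relative to isotype control. The shift differed by class, and the monocyte ratio moved only from 1.44 to 1.47. Chosen after seeing the data, counting the Ly6i and Nos2 cluster as macrophages gave 1.22, 1.03, 2.21, 1.12, 0.551, 0.582 and 1.01 for the first 7, and counting it as monocytes gave 1.28 in monocytes. Low C1q monocytes gave 1.07, low C1q dendritic cells 0.901, and dendritic cells with the subcluster of macrophage RNA 0.971. The ratios of B to isotype control were also added after seeing the data. The 1 ratio that changed direction was that of dendritic cells with no doublets left out, at 1.00, and the cause was not tested. Members at least 1.5-fold lower in the combination numbered 2 of 10, 3 at the lower fold tried, 0 with a minimum of 20 CPM, where H2-DMb2 and H2-Ob were no longer counted, and 2 in the other 12 alternatives. For B they numbered 8, and 6 to 10 over 14 alternatives. No paired analysis was possible because each group had 1 library, which also allowed no leaving out of replicates. Depth limits H2-Oa and H2-DMb2 in monocytes, and every member in cDC1, plasmacytoid and B cells, which were few.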

Other observations

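Migratory dendritic cells had fewer H2-Ab1 UMIs for each H2-Aa UMI than cDC2 had in each library: 0.422, 0.585, 0.636 and 0.736 in isotype control, single antibody A, single antibody B and the combination, against 0.847, 0.909, 0.823 and 0.913. This pair was singled out after the values were seen, with 11 to 36 migratory cells in a library. Basophils, the cluster led by Mcpt8 and Prss34, held 8, 4, 0 and 5 UMIs of H2-Oa in 50, 15, 13 and 24 cells of the same libraries, levels of 51.2, 75.1, 0 and 76.5 CPM, and a count of 0 allows up to 126 CPM in the library of B. Their Ciita counts were 0, 0, 0 and 1 UMI. This cluster too was singled out after its values were seen.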
